A study of Homo sapiens with 13 samples.

Results

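The 9 genes described here encode isoenzymes of 4 steps of glycolysis: the hexokinases HK1 and HK2, the aldolases ALDOA and ALDOC, the enolases ENO1, ENO2 and ENO3, and the pyruvate kinases PKM and PKLR. Each was found in the deposited array table as the row annotated with that symbol alone, and each had 1 such row, so that 9 of 18377 genes with a single symbol are members. PKLR is the liver form among the members, and liver forms of the other steps are not analysed here. RNA was measured on 13 arrays, 1 per culture flask, from a human liver tumour line and a line derived from it. HepG2S1 was obtained from HepG2, which the labels call a hepatoblastoma line, by raising the sorafenib concentration in small steps over months, and was then kept in the drug. Sorafenib, a drug for advanced liver cancer, blocks several kinases. The groups were HepG2S1 with 6 µM sorafenib at 2% O2 (n = 3), HepG2S1 taken off sorafenib at 20% O2 (withdrawn, n = 3), HepG2S1 with 6 µM sorafenib at 20% O2 (n = 4) and HepG2 without sorafenib at 20% O2 (n = 3), each harvested after 72 h. All 4 groups grew in the same medium, which held fetal calf serum, insulin and dexamethasone. HepG2S1 is a single derived line, whether it is a clone is not stated, and no solvent treatment of the drug-free flasks is mentioned. Selection history and drug exposure therefore cannot be told apart in comparisons of drug-treated HepG2S1 with HepG2. Where HepG2S1 at 2% O2 is compared with HepG2, oxygen differs as well.

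Glycolysis turns glucose into pyruvate, and several of its steps can be carried out by isoenzymes from separate genes that are used in different tissues. Hexokinase traps glucose as its phosphate, aldolase splits the phosphorylated hexose into trioses, enolase forms phosphoenolpyruvate and pyruvate kinase uses that compound to make ATP. Adult hepatocytes are known for liver forms such as that of pyruvate kinase, which suit an organ that both takes up and releases glucose, whereas muscle, brain and dividing cells use other forms, several of which are known targets of the hypoxia-inducible factors (HIF).

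The promoter sequences below are shown because ENO2, HK2 and ALDOC had the largest rises among the members at 2% O2, and because ENO1, a second enolase, had a far smaller one. Each is the 250 bases ahead of the RefSeq start of the gene in GRCh38.p14, written 5′ to 3′ on the gene's strand. Capitals mark the HIF core motif, ACGTG or GCGTG on either strand, so that the reverse strand reads CACGT or CACGC; an E-box, CACGTG, holds the core on both strands and counts as 2 matches.
ENO2 (chr12:6914330-6914579, plus strand): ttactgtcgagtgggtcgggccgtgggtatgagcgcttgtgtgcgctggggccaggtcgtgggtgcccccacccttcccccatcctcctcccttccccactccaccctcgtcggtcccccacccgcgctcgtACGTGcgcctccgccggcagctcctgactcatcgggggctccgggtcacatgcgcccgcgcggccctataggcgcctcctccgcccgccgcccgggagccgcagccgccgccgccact
HK2, first of 2 starts (chr2:74833877-74834126, plus strand): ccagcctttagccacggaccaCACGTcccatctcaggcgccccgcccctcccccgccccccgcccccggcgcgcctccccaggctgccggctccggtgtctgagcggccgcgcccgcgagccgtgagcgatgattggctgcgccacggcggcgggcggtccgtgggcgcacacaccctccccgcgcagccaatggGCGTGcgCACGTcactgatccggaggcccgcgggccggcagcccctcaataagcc
ALDOC (chr17:28576896-28577145, minus strand): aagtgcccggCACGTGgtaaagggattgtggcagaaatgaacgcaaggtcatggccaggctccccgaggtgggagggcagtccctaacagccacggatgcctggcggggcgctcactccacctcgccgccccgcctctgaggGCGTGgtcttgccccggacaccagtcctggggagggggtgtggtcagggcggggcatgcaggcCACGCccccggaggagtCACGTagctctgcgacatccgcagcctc
ENO1 (chr1:8878687-8878936, minus strand): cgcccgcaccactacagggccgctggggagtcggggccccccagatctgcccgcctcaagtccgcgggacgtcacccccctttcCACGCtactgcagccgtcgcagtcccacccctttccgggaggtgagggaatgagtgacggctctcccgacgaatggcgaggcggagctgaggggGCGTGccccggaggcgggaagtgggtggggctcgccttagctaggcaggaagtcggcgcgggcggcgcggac

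The ENO2 window held 1 match, which lay 113 bases before the start, the first HK2 window held 3, the ALDOC window held 5, among them 1 E-box, and the ENO1 window held 2, neither of them ACGTG. The second HK2 window, not printed, held 6, among them 2 E-boxes. ALDOA, also not printed, held ACGTG in all 3 of its windows and rose by 0.18 at 2% O2, as ENO1 did. The first PKLR window held an E-box, and PKLR changed by -0.10 at 2% O2. Over all members RefSeq gave 20 such windows, of which 11 held the core. A gene had 1 to 7 windows, and 8 of the 9 genes held the core in any of them. No share over all genes was computed for that count per gene, and the shares below are per window. The window of PKM held none. Of 35116 windows of this length over all genes, 43.2% held the core, 18.5% held ACGTG and 6.34% held an E-box, so that a match is common and is given here as a description of the sequence alone.

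The arrays had medians of 7.30 to 7.42 on the log2 scale of the deposited values, and their number limits the precision. Over all rows, Pearson r was 0.913 to 0.923 between arrays of HepG2S1 and HepG2, 0.991 to 0.996 between groups within HepG2S1, and 0.995 to 0.998 within a group. Of 11 hepatocyte markers measured, 7 lay below the lower quartile of the tested genes (6.46, the median over arrays) in each HepG2S1 group and 0 did in HepG2. The median of these markers was 5.94 to 6.16 on the HepG2S1 arrays and 12.66 to 12.89 on the HepG2 arrays. The other 4, among them APOA1 at 7.76 in HepG2S1 with sorafenib at 20% O2, lay above that quartile in HepG2S1. In such bulk RNA, fewer cells of a type and less RNA per cell cannot be told apart. The labels do not say that flasks of a group were independent cultures, and the p-values cover flask-to-flask spread, which may be technical. Every fold change below is the first group minus the second on the log2 scale, ± SE, from 1 limma fit of the 4 groups, and a gene passed at a Benjamini-Hochberg adjusted p of 0.05 over the 18377 genes. Values are levels of 1 probe set per gene, so that only changes, never levels, are set side by side between genes.

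The hexokinases differed in opposite directions between drug-treated HepG2S1 and HepG2 at 20% O2. HK1, the form found in most tissues and known for binding to mitochondria, had log2 levels of 9.07, 9.16 and 8.97 in HepG2S1 at 2% O2, 8.92, 8.92 and 8.94 in withdrawn HepG2S1, 8.93, 8.94, 8.89 and 8.93 in HepG2S1 with sorafenib at 20% O2, and 6.44, 6.36 and 6.21 in HepG2. All 10 HepG2S1 arrays lay far above the 3 HepG2 arrays. In limma HK1 was higher by 2.58 ± 0.06 in HepG2S1 with sorafenib at 20% O2 than in HepG2 (adjusted p = 6.98e-15), a 6.00-fold difference and the largest of any member in that comparison. Its HepG2 mean of 6.34 lay below the lower quartile, where array values can flatten, so that the size of this fold may be limited. Whether values flatten at that level was not tested. Within HepG2S1 no change of the gene passed: it was 0.01 ± 0.06 on withdrawal (adjusted p = 0.963) and 0.15 ± 0.06 at 2% O2 (adjusted p = 0.117), with the 2% O2 arrays all above the others.

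HK2, the inducible form of muscle, fat and many tumours, followed another course. Its log2 levels were 11.21, 11.29 and 11.12 in HepG2S1 at 2% O2, 10.44, 10.36 and 10.32 in withdrawn HepG2S1, 10.07, 10.10, 9.89 and 9.98 in HepG2S1 with sorafenib at 20% O2, and 10.92, 10.98 and 10.98 in HepG2. No array of any group overlapped another group. Under sorafenib at 20% O2, HepG2S1 held less HK2 RNA than HepG2, by -0.95 ± 0.06 (limma adjusted p = 1.89e-09). Withdrawal raised it by 0.36 ± 0.06 over the drug-treated line (adjusted p = 0.000944), which left it 0.59 below HepG2 (-0.59 ± 0.07, adjusted p = 1.26e-06). At 2% O2 it stood 1.19 ± 0.06 above HepG2S1 at 20% O2 (adjusted p = 8.91e-09), 2.29-fold, and 0.25 ± 0.07 above HepG2 (adjusted p = 0.00449). The last difference shrank to 0.14 (adjusted p = 0.0594) when arrays were scaled to their 75th percentile. Among hexokinase relatives that are no members, HKDC1, a hexokinase-like gene, was higher in HepG2S1 with sorafenib at 20% O2 than in HepG2 by 0.84 ± 0.07 (adjusted p = 3.32e-08) and lower after withdrawal by -0.40 ± 0.07 (adjusted p = 0.000944), opposite to HK2 in both comparisons. HK3 and ADPGK, which uses ADP to phosphorylate glucose, did not pass in either of these comparisons or at 2% O2.

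Both aldolases were higher in HepG2S1 than in HepG2, the brain form by far more. ALDOA, the aldolase of muscle and most dividing cells, had log2 levels of 11.35, 11.29 and 11.33 in HepG2S1 at 2% O2, 11.15, 11.17 and 11.20 in withdrawn HepG2S1, 11.13, 11.15, 11.15 and 11.15 in HepG2S1 with sorafenib at 20% O2, and 10.97, 10.99 and 10.99 in HepG2. The 2% O2 arrays were the highest and the HepG2 arrays the lowest, with the withdrawn and drug-treated groups between them, where withdrawn replicate 1 shared its value with drug-treated arrays. ALDOC, known for its expression in brain, had 11.04, 11.11 and 10.91 in HepG2S1 at 2% O2, 10.15, 10.03 and 9.88 in withdrawn HepG2S1, 10.20, 10.13, 10.03 and 9.83 in HepG2S1 with sorafenib at 20% O2, and 8.71, 8.77 and 8.87 in HepG2. The 2% O2 arrays were again the highest and the HepG2 arrays the lowest, and the withdrawn and drug-treated arrays overlapped.

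In limma ALDOC was higher in HepG2S1 with sorafenib at 20% O2 than in HepG2 by 1.26 ± 0.09 (adjusted p = 3.86e-09), a 2.40-fold difference, and ALDOA by 0.17 ± 0.04 (adjusted p = 0.0038). On withdrawal ALDOC changed by -0.03 ± 0.09 (adjusted p = 0.878) and ALDOA by 0.03 ± 0.04 (adjusted p = 0.73), with 95% intervals of -0.22 to 0.16 for ALDOC and -0.06 to 0.12 for ALDOA. At 2% O2 the brain form rose by 0.98 ± 0.09 over 20% O2 (adjusted p = 2.81e-06), 1.97-fold, and the muscle form by 0.18 ± 0.04 (adjusted p = 0.0133). The ALDOA rise at 2% O2 missed the threshold without replicate 1 of the 2% O2 group (adjusted p = 0.0601) and under 75th percentile scaling (adjusted p = 0.0933). Together the shifts left ALDOC 2.24 ± 0.09 above HepG2 at 2% O2 (adjusted p = 8.62e-12), 4.72-fold.

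The 3 enolases each followed a course of their own. ENO1, the enolase of most tissues, had log2 levels of 13.59, 13.63 and 13.61 in HepG2S1 at 2% O2, 13.57, 13.57 and 13.59 in withdrawn HepG2S1, 13.45, 13.48, 13.42 and 13.39 in HepG2S1 with sorafenib at 20% O2, and 13.38, 13.40 and 13.43 in HepG2. The 2% O2 and withdrawn arrays lay slightly above the other groups, which overlapped. The group means of ENO1 lay at percentiles 99.8 to 99.9 of the genes of an array, near the top of the scale. Whether signals this high flatten, which would shrink its changes and enter its balances, was not tested. Its change between HepG2S1 with sorafenib at 20% O2 and HepG2 was 0.03 ± 0.05 (limma adjusted p = 0.611; 95% interval -0.07 to 0.13). It was higher by 0.14 ± 0.05 after withdrawal (adjusted p = 0.045) and by 0.18 ± 0.05 at 2% O2 (adjusted p = 0.016). Both calls were close to the threshold: the first was lost in 6 of the 7 fits that left out 1 array, all but that without drug-treated replicate 2, with a highest adjusted p of 0.131 without withdrawn replicate 3, and the second without 2% O2 replicate 2 (adjusted p = 0.0658) or drug-treated replicate 4 (adjusted p = 0.0541).

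ENO2, the enolase of neurons and neuroendocrine cells, had the largest response to low oxygen of all members. It had 11.42, 11.55 and 11.26 in HepG2S1 at 2% O2, 9.97, 9.89 and 9.84 in withdrawn HepG2S1, 9.39, 9.43, 9.34 and 9.29 in HepG2S1 with sorafenib at 20% O2, and 9.78, 9.71 and 9.84 in HepG2. The 2% O2 arrays stood alone at the top and the drug-treated arrays at 20% O2 alone at the bottom, with withdrawn and HepG2 arrays side by side between them. Relative to HepG2S1 at 20% O2 the 2% O2 group was higher by 2.05 ± 0.07 (limma adjusted p = 3.07e-10), 4.15-fold. The drug-treated line at 20% O2 was lower than HepG2 by -0.41 ± 0.07 (adjusted p = 5.88e-05), and withdrawal raised the gene by 0.54 ± 0.07 (adjusted p = 7.63e-05). Withdrawn HepG2S1 and HepG2, both without the drug, differed by 0.12 ± 0.07, with a 95% interval of -0.03 to 0.28 (adjusted p = 0.161).

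ENO3, the muscle enolase, moved against ENO2 both between drug-treated HepG2S1 and HepG2 and on withdrawal. It had 8.53, 8.45 and 8.52 in HepG2S1 at 2% O2, 8.07, 8.16 and 8.03 in withdrawn HepG2S1, 8.76, 8.57, 8.53 and 8.65 in HepG2S1 with sorafenib at 20% O2, and 7.73, 7.79 and 7.86 in HepG2. The arrays with sorafenib were the highest at either oxygen level, the withdrawn arrays lower and the HepG2 arrays the lowest. Under sorafenib at 20% O2 the gene was higher in HepG2S1 than in HepG2 by 0.83 ± 0.06 (limma adjusted p = 9.69e-09), and it fell by 0.54 ± 0.06 on the log2 scale after withdrawal (adjusted p = 4.27e-05). At 2% O2 the change was -0.13 ± 0.06 (adjusted p = 0.179), which became -0.19 (adjusted p = 0.038) under 75th percentile scaling. ENO4, a relative known from sperm, did not pass in these 3 comparisons.

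Other markers of the tissues for which ENO2, ALDOC and ENO3 are known were examined beside them. Of 9 neuronal and neuroendocrine markers measured, 4 lay below the lower quartile in HepG2S1 at 2% O2. Their median there was 6.59 to 6.73, against 6.75 to 6.93 in HepG2S1 with sorafenib at 20% O2, and in limma 0 rose and 2 fell (MAP2 and STMN2; 0 and 4 by an unadjusted p of 0.05), while ENO2 and ALDOC rose. Chromogranin A (CHGA) was at 6.26 at 2% O2 and 6.42 at 20% O2, both below the lower quartile. In HepG2S1 with sorafenib at 20% O2 against HepG2, ALDOC was higher and ENO2 lower. Of the 9 markers, 2 were higher there (MAP2 by 3.22 ± 0.08 and SNAP25 by 1.83 ± 0.14) and 1 was lower (CHGB). MAP2 lay below the lower quartile in HepG2 (5.46), so that the size of its change may be limited. Over all genes 30.1% were higher and 27.2% lower. The median of the 9 markers was 6.75 to 6.93 in HepG2S1 and 6.53 to 6.59 in HepG2.

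Of 8 skeletal muscle markers 0 were higher (also 0 by an unadjusted p) and 1, ACTA1, was lower in HepG2S1 with sorafenib at 20% O2 than in HepG2 in limma, while ENO3 was higher. Of these 8, 4 lay below the lower quartile in HepG2S1 and 3 in HepG2. Creatine kinase M (CKM), at 6.26 in HepG2S1 and 6.34 in HepG2, was below it in both. The muscle markers' median was 6.96 to 7.18 on those HepG2S1 arrays and 7.03 to 7.32 on the HepG2 arrays. The fibroblast markers had a median of 7.89 to 8.01 on the same HepG2S1 arrays and 6.75 to 6.95 on the HepG2 arrays. In limma 3 of 8 were higher (DCN, LUM and FAP), each below the lower quartile in HepG2 (5.16, 5.20 and 5.11). The other 5, among them COL1A1, did not pass, and the median change over the 8 was 0.07. In that comparison 30.1% of all genes were higher and 27.2% lower. The part of any of these markers in the isoenzyme changes was not tested.

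The pyruvate kinases parted between the lines. PKM, the gene of the muscle and tumour forms, had log2 levels of 12.78, 12.75 and 12.78 in HepG2S1 at 2% O2, 12.73, 12.69 and 12.72 in withdrawn HepG2S1, 12.44, 12.54, 12.39 and 12.48 in HepG2S1 with sorafenib at 20% O2, and 11.83, 11.94 and 12.01 in HepG2. All HepG2S1 arrays were above all HepG2 arrays, and within HepG2S1 the drug-treated arrays at 20% O2 were the lowest. PKLR, which makes the liver and red cell forms from separate promoters, had 6.96, 7.18 and 7.13 in HepG2S1 at 2% O2, 7.14, 7.13 and 7.20 in withdrawn HepG2S1, 7.02, 7.38, 7.16 and 7.20 in HepG2S1 with sorafenib at 20% O2, and 8.74, 8.54 and 8.60 in HepG2. The HepG2S1 groups overlapped one another and all lay below HepG2.

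In limma PKM was higher in HepG2S1 with sorafenib at 20% O2 than in HepG2 by 0.54 ± 0.05 (adjusted p = 3.64e-07), and rose further by 0.25 ± 0.05 after withdrawal (adjusted p = 0.00462) and by 0.31 ± 0.05 at 2% O2 (adjusted p = 0.00161). PKLR was lower in HepG2S1 with sorafenib at 20% O2 than in HepG2 by -1.44 ± 0.08 (adjusted p = 2.79e-10), which makes the HepG2 level 2.71-fold higher. The difference was -1.47 ± 0.09 for withdrawn HepG2S1 and -1.54 ± 0.09 for HepG2S1 at 2% O2. Within HepG2S1 the liver form changed by -0.03 ± 0.08 on withdrawal (adjusted p = 0.836; 95% interval -0.21 to 0.14) and by -0.10 ± 0.08 at 2% O2 (adjusted p = 0.405; 95% interval -0.27 to 0.07). Its mean of 7.19 in the drug-treated line at 20% O2 lay at percentile 36.4 of the genes of an array, above the lower quartile. That quartile is no detection limit and no detection call was named, so whether PKLR stood above background in HepG2S1 cannot be told. The size of its fall, and the lack of a change within HepG2S1, may be limited by this. The fall of PKLR moved with that of all 11 hepatocyte markers measured, which were lower in the same comparison with a median change of -7.33, and their part in it was not tested. The 4 red cell markers had medians of 6.33 to 6.60 on every array, and 0 passed in limma in any comparison, also by an unadjusted p of 0.05. A whole-transcript row of PKM cannot separate its splice forms, so that nothing is said of which form was made.

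**Figure D1:**
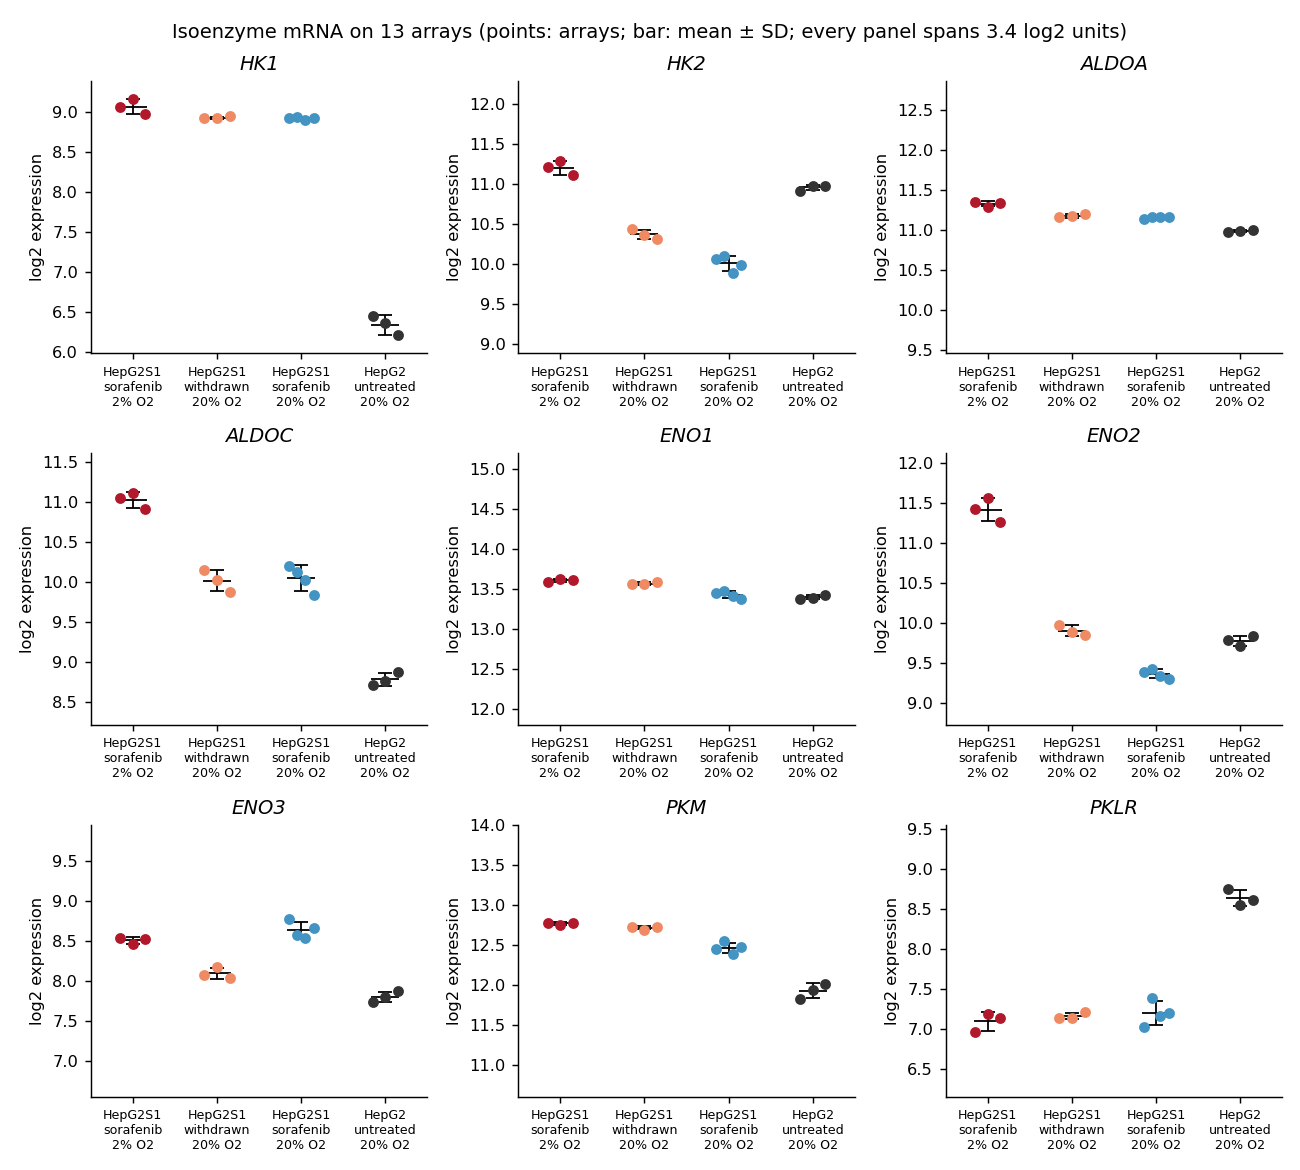
Log2 expression of the 9 isoenzymes on each of the 13 arrays (points), with the mean and SD of each group (bars); every panel spans the same number of log2 units, and levels are not comparable between panels. HK1, ALDOA, ALDOC, ENO3, PKM and PKLR each separate all HepG2S1 arrays from the HepG2 arrays. ENO2 stands highest at 2% O2 (11.26 to 11.55), and all ENO1 arrays lie between 13.38 and 13.63.

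The balance between isoenzymes of a step was read within each array as the log2 difference of their rows, of which only the shift between groups has a meaning. In HepG2S1 with sorafenib at 20% O2, against HepG2, HK2 lost ground to HK1 by -3.53 ± 0.07, ALDOC gained on ALDOA by 1.10 ± 0.11, and PKM gained on PKLR by 1.98 ± 0.09. The low levels of HK1 in HepG2 and of PKLR in HepG2S1 may limit the size of the hexokinase and pyruvate kinase shifts. Among the enolases ENO3 gained on ENO1 by 0.80 ± 0.06 while ENO2 lost by -0.44 ± 0.06. At 2% O2 against 20% O2 the enolase balance moved to ENO2 by 1.87 ± 0.06, the aldolase balance to ALDOC by 0.80 ± 0.11 and the hexokinase balance back to HK2 by 1.05 ± 0.07, where its shift from HepG2 was still -2.48. After withdrawal ENO2 gained on ENO1 by 0.40 ± 0.06, ENO3 lost by -0.68 ± 0.06, and the aldolase balance changed by -0.06 ± 0.11.

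The spread of the balance within groups was small against most of these shifts. Group SDs ran from 0.01 for HK2 over HK1 at 2% O2 to 0.18 for PKM over PKLR in HepG2. The balance of ENO2 over ENO1 was -4.07, -4.06, -4.08 and -4.09 on the HepG2S1 arrays with sorafenib at 20% O2, and -2.17, -2.08 and -2.35 at 2% O2. In exact two-sided permutation tests over arrays, the 10 HepG2S1 arrays against the 3 HepG2 arrays gave p = 0.00699, the smallest such a split allows, for HK2 over HK1 (shift -3.11), ALDOC over ALDOA (1.32), ENO3 over ENO1 (0.51) and PKM over PKLR (2.18). For ENO2 over ENO1 the exact p was 0.797 and the arrays overlapped (shift 0.24). That shift averages group shifts from HepG2 of 1.43 at 2% O2, -0.05 after withdrawal and -0.44 with sorafenib at 20% O2. The 10 arrays pool 3 culture conditions of 1 derived line, which the test takes as replicates. Its p-values thus refer to a difference between the lines over mixed conditions. Adjusted over the 35 exact tests that were run, the first 4 had p = 0.0612, and no balance passed 0.05. In tests between single groups, 3 arrays against 4 cannot go below an exact p of 0.0571, and 3 against 3 cannot go below 0.1. Scaling to the 75th percentile leaves these differences as they are.

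**Figure D2:**
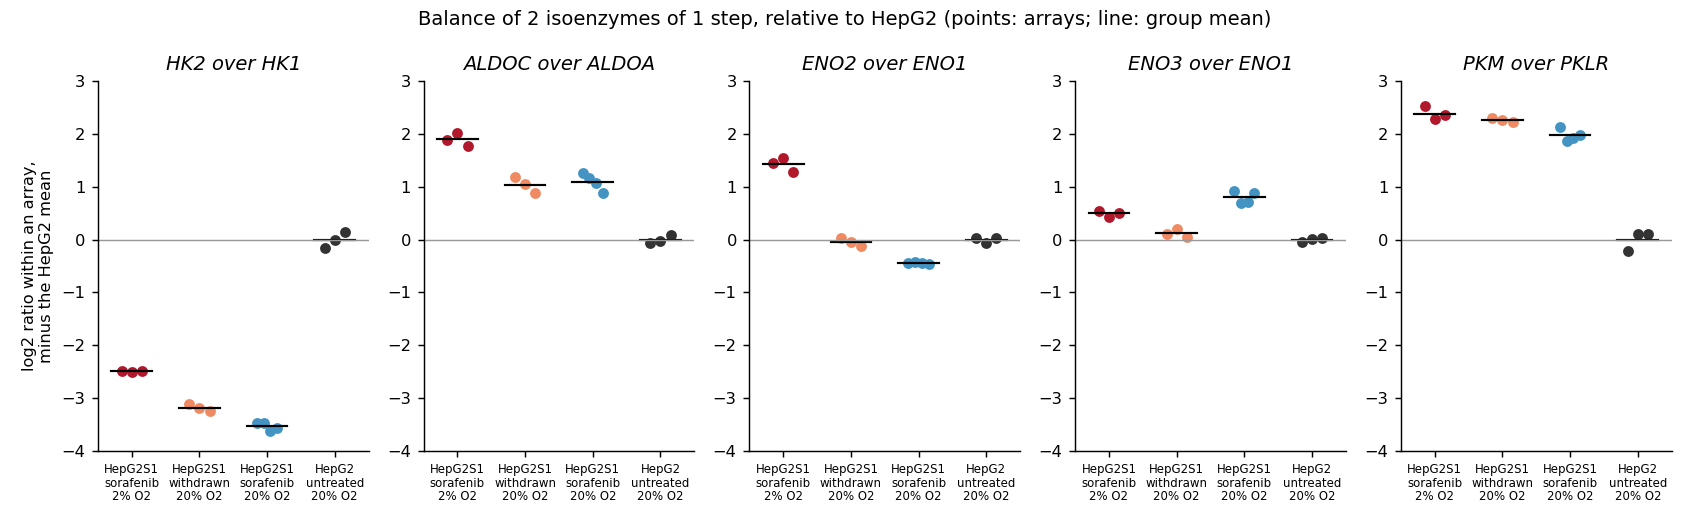
Log2 ratio of a pair of isoenzymes of 1 step on each array (points), minus the mean of the HepG2 arrays, with the group mean (line). HK2 over HK1 lies below HepG2 in every HepG2S1 group, ALDOC over ALDOA and PKM over PKLR lie above it, and ENO2 over ENO1 is above it at 2% O2 alone (shift 1.43). Low signal of HK1 in HepG2, and of PKLR in HepG2S1, may limit the shifts of their pairs.

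Counted by comparison, HepG2S1 with sorafenib at 20% O2 against HepG2 had 5 members higher (HK1, ALDOA, ALDOC, ENO3 and PKM) and 3 lower (HK2, ENO2 and PKLR), with ENO1 alone not passing in limma. Over all genes tested 30.1% were higher and 27.2% lower. The members' median change was 0.17 against 0.01 for all genes. Withdrawn HepG2S1 against HepG2, the comparison in which both sides were free of the drug, had 6 members higher and 2 lower, where 29.6% of all genes were higher and 27.0% lower. The withdrawn line was higher than HepG2 in HK1 (2.59 ± 0.06), ALDOC (1.23 ± 0.09) and PKM (0.79 ± 0.06), and in ENO3 by 0.29 ± 0.07 (limma adjusted p = 0.00133). HepG2S1 at 2% O2 against HepG2 had 8 higher and 1 lower, PKLR, with 30.6% of all genes higher and 30.6% lower. Line, drug and oxygen differ together in that comparison and cannot be told apart.

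Within HepG2S1, withdrawal against continued sorafenib had 4 members higher (HK2, ENO1, ENO2 and PKM) and 1 lower (ENO3), where 10.1% of all genes were higher and 7.90% lower. The members' median change was 0.03 against -0.02 over all genes. HepG2S1 at 2% O2 against 20% O2, both with sorafenib, had 6 members higher (HK2, ALDOA, ALDOC, ENO1, ENO2 and PKM) and 0 lower, where 8.99% of all genes were higher and 6.17% lower. By an unadjusted p of 0.05, HK1 would be a further higher member and the count of lower members is still 0. The members' median change was 0.18 against -0.03 over all genes. Under 75th percentile scaling, which moved the median of all genes by -0.06, ALDOA and ENO1 did not pass and ENO3 was lower, for 4 higher and 1 lower. These comparisons share the 4 arrays of the drug-treated line at 20% O2. HK2 changed by 0.36 on withdrawal and 1.19 at 2% O2, ENO2 by 0.54 and 2.05, PKM by 0.25 and 0.31 and ENO3 by -0.54 and -0.13, while ALDOC changed by -0.03 and 0.98.

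Set directly against withdrawn HepG2S1, the 2% O2 group had 5 members higher (HK2, ALDOA, ALDOC, ENO2 and ENO3) and 0 lower in limma, where 10.8% of all genes were higher and 7.73% lower; by an unadjusted p of 0.05 the lower count was also 0, and HK1 would be a further higher member. ENO2 differed by 1.51 ± 0.07 (adjusted p = 2.40e-08), ALDOC by 1.01 ± 0.09, HK2 by 0.83 ± 0.07 and ENO3 by 0.41 ± 0.07. PKM differed by 0.06 ± 0.06 (adjusted p = 0.573; 95% interval -0.07 to 0.18). Drug and oxygen differ together here and cannot be told apart. The ALDOA difference of 0.15 ± 0.05 (adjusted p = 0.0375) was lost when any of the 6 arrays was left out, with adjusted p of 0.0502 to 0.125.

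**Figure D3:**
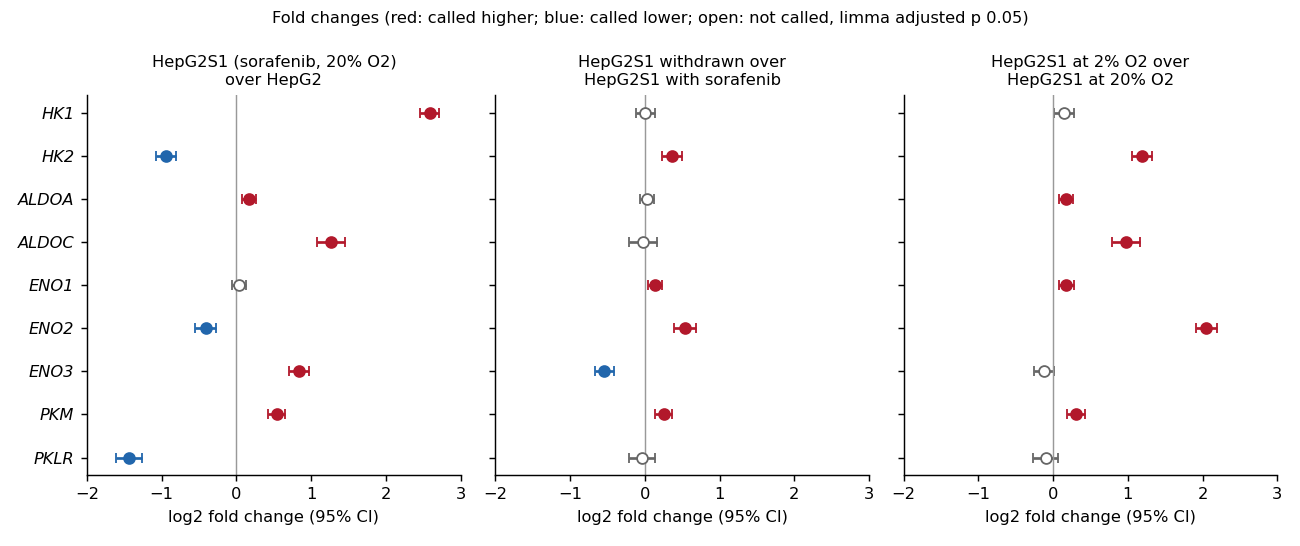
Log2 fold change of each isoenzyme with its 95% interval in 3 comparisons: HepG2S1 with sorafenib at 20% O2 over HepG2, withdrawn over drug-treated HepG2S1, and 2% O2 over 20% O2 in drug-treated HepG2S1 (filled points passed an adjusted p of 0.05). HK1 (2.58) and PKLR (-1.44) lead the first, ENO2 (0.54) and ENO3 (-0.54) the second, and ENO2 (2.05), HK2 (1.19) and ALDOC (0.98) the third.

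The other genes of the pathway were taken from a list of 21, of which 19 had a row (PGAM1 and SLC16A3 did not). At 2% O2 against 20% O2, 10 of 19 were higher, 1 was lower and 8 did not pass, where 8.99% of all genes were higher and 6.17% lower. The median change of the 19 was 0.26. The largest changes were those of PFKFB4, which makes the activator of phosphofructokinase (2.06 ± 0.11, limma adjusted p = 8.47e-09), the glucose transporters SLC2A3 (1.81 ± 0.08, adjusted p = 1.23e-09) and SLC2A1 (1.51 ± 0.06, adjusted p = 5.88e-10), the liver-type phosphofructokinase PFKL (0.66 ± 0.07) and its platelet form PFKP (0.54 ± 0.06), and the triose isomerase TPI1 (0.51 ± 0.06). The muscle phosphofructokinase PFKM was the 1 gene that fell, by 0.41 ± 0.07 on the log2 scale (adjusted p = 0.00168). After withdrawal 6 of 19 were higher, 1 was lower and 12 did not pass, where 10.1% of all genes were higher and 7.90% lower. SLC2A1 (0.99 ± 0.06), PFKFB4 (0.65 ± 0.11), SLC2A3 (0.60 ± 0.08), PFKFB3 (0.25 ± 0.06) and lactate dehydrogenase A (LDHA, 0.23 ± 0.05) were among the higher ones. PFKFB2 was the lower one (-0.23 ± 0.06).

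Against HepG2, drug-treated HepG2S1 at 20% O2 had 11 of the 19 higher, 6 lower and 2 not passing. Of all genes, 30.1% were higher and 27.2% lower. Lactate dehydrogenase B (LDHB) was at 12.70 in HepG2S1 and 6.27 in HepG2, a change of 6.43 ± 0.10 that starts below the lower quartile. PFKM (3.59 ± 0.07) and PFKP (3.30 ± 0.06) were higher too. The liver glucose transporter SLC2A2 (-4.43 ± 0.09), the liver bifunctional enzyme PFKFB1 (-2.85 ± 0.09) and SLC2A3 (-2.51 ± 0.08) were lower, and the first pair were below the lower quartile in HepG2S1.

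**Figure D4:**
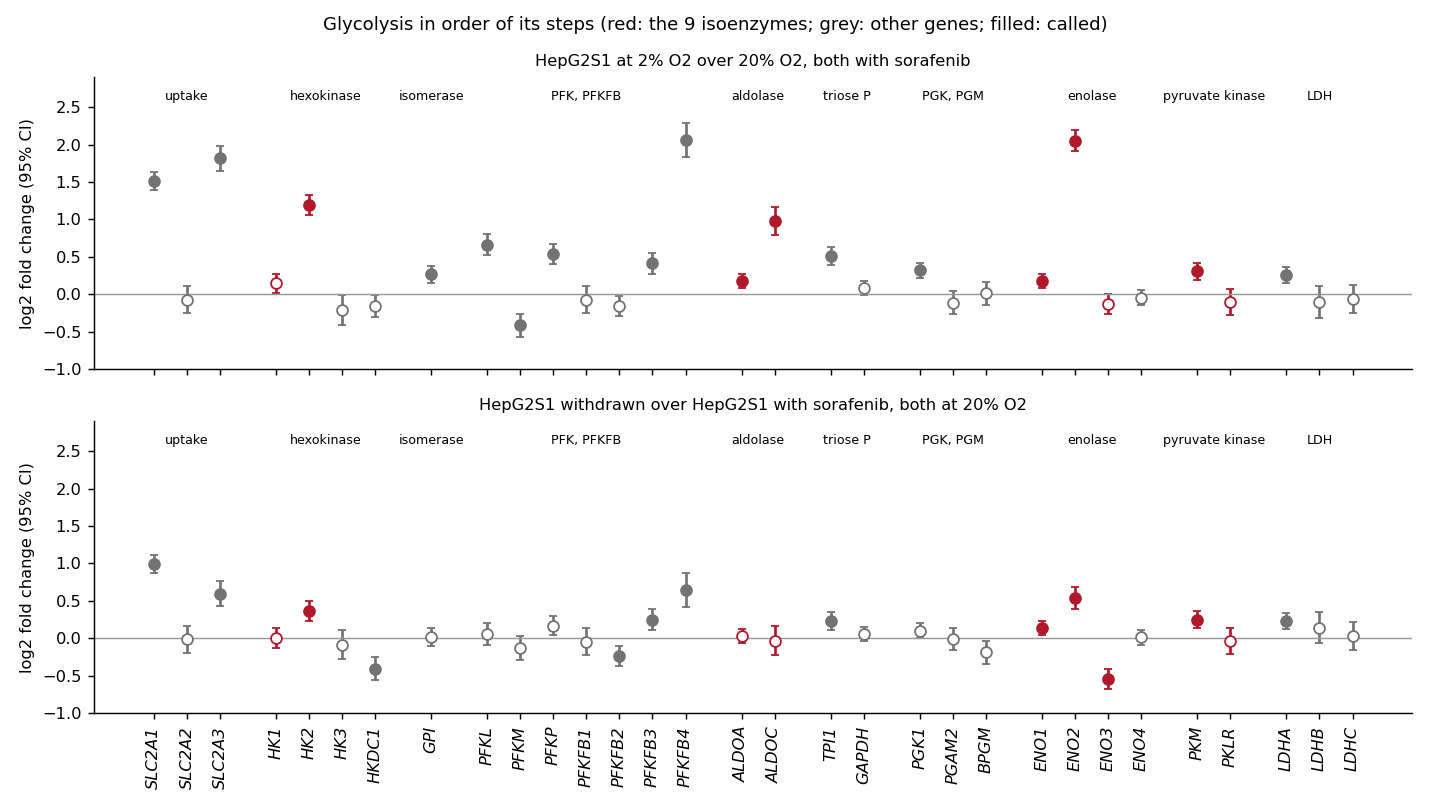
Log2 fold change with its 95% interval for the isoenzymes (red) and the other measured genes of the pathway and its relatives (grey), in the order of the steps, for 2% O2 over 20% O2 (top) and withdrawn over drug-treated (bottom) HepG2S1; filled points passed. At 2% O2 SLC2A1, SLC2A3, HK2, ALDOC, ENO2 and PFKFB4 lie at or above 0.98, and PFKM lies at -0.41.

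Of 9 listed regulators of these genes, 7 had a row. MLXIPL, the carbohydrate response factor that in liver is known to act on PKLR, was lower in drug-treated HepG2S1 at 20% O2 (7.65) than in HepG2 (10.78), by -3.12 ± 0.09 (limma adjusted p = 4.45e-14), and was lower again on withdrawal (-0.30 ± 0.09, adjusted p = 0.0249) and at 2% O2 (-0.34 ± 0.09, adjusted p = 0.0164). RNA of HIF1A, the HIF subunit whose protein oxygen destabilises, was higher than in HepG2 by 0.46 ± 0.07, and changed by 0.02 ± 0.07 on withdrawal and -0.10 ± 0.07 at 2% O2, neither of which passed. EPAS1, its relative, was lower at 2% O2 by -0.36 ± 0.05 and after withdrawal by -0.22 ± 0.05. MYC was higher than in HepG2 by 0.30 ± 0.05 and rose by 0.20 ± 0.05 after withdrawal. Of the RNA-binding proteins known to act on PKM transcripts, HNRNPA1 (0.58 ± 0.06) and HNRNPA2B1 (0.40 ± 0.07) were higher in HepG2S1 with sorafenib at 20% O2 than in HepG2, where PTBP1 changed by 0.01 ± 0.05 (adjusted p = 0.91). PTBP1 rose by 0.28 ± 0.05 after withdrawal (adjusted p = 0.00147).

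The genes most like a member were sought by Pearson r of log2 levels over the 10 HepG2S1 arrays, among 2068 genes with an SD of at least 0.2 there. HK2, ALDOC, ENO2 and ENO3 met that minimum, and the other members varied too little. HK2 and ENO2 were among each other's closest genes (r = 0.996, and 0.804 over all 13 arrays), beside ITGA5 (0.997) and PFKFB4 (0.994) for HK2 and TMEM45A (0.996) and PDK3 (0.995) for ENO2. ALDOC was closest to SPRY1 (0.988), ORAI3 (0.986) and LGALS8 (0.984). ENO3 was closest to TRANK1 (0.987), ARSK (0.979) and C9orf72 (0.972). The points share 3 culture conditions, so that r mostly describes the order of these groups. Over all 13 arrays r was -0.24 for HK2 with ITGA5 and -0.55 for ALDOC with SPRY1, while it was 0.955 for ENO3 with TRANK1.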

How the data were processed

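Total RNA of 13 flasks was measured on 13 Affymetrix whole-transcript arrays. The deposited values are 1 table on the log2 scale, which the authors obtained by RMA (background correction, normalization between arrays, summary of probes) per the submitters' processing notes. RMA pulls low signals together and shrinks folds near the floor. No RMA version, detection call or batch was named in the sources used here. Of 28926 rows, 19310 had 1 gene symbol, 1752 several and 7864 none in the platform annotation, and 19279 symbols were updated through Entrez IDs with the RefSeq table of GRCh38.p14. For 685 genes with several rows the one with the highest mean was taken, which left 18377 genes.

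Groups were compared with limma 3.58.1 (R 4.3.3), lmFit and eBayes, in 1 fit of the 4 groups with no covariate and Benjamini-Hochberg adjustment over all genes per comparison. The fit was checked on simulated data. Isoform balances were tested with exact two-sided permutation tests in scipy 1.17.1 (Python 3.11.15). Promoters came from RefSeq, and figures from matplotlib 3.10.9. The members, relatives, pathway, gluconeogenesis, regulator and marker lists were chosen with earlier results of these data known. All members were named, with the 6 largest changes among the other pathway genes per comparison and the 3 most alike genes per member. Single markers, PFKM at 2% O2 and the genes of gluconeogenesis were picked for naming after their values were seen. The alternatives changed the moderation (trend and robust), the arrays fitted (the compared groups, or each array left out in turn), the low-level filter (33rd percentile), the scaling (75th percentile, or quantiles anew), array weights, the averaging of rows and the threshold (0.01). Fitting the 10 HepG2S1 arrays by themselves was added after seeing the data. Some genes of the lists are not reported here.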

Additional observations from a re-analysis of the deposited data

Results flagged for a closer look

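ALDOA in HepG2S1 with sorafenib at 20% O2 stood out for 1 array: its lowest value, 11.13, was set apart from the other 3 arrays, which all held exactly 11.15. The gap equals the whole range of the group because the other values are identical, and withdrawn replicate 1 held that same value too. HK1 likewise had 1 value, 8.92, on both of withdrawn replicates 1 and 2. Such ties are common in the deposited table, where 9872 of 28926 rows (34.1%) had a value shared by 2 or more arrays. The 9 members and 5 balances were examined in the 1 group of 4 arrays, which makes 14 checks. Chance gives such a flag in about 1 of 20 checks, and these share the same arrays and genes, so that they are not independent.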

How the results depend on the processing

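No paired analysis was possible because the numbers in the sample titles all differ, so that the groups share none. No called fold change of a member changed sign. Those that did had not passed: ENO1 for drug-treated HepG2S1 against HepG2 (-0.02 under 75th percentile scaling), and HK1, ALDOA, ALDOC and PKLR on withdrawal, which lay between -0.02 and 0.04 where they did. Of 567 alternative values of the members' fold changes, 545 kept their side of the threshold, 19 lost a call and 3 gained one, and the 140 alternative values of the isoenzyme balances kept their direction except ALDOC over ALDOA on withdrawal (up to 0.02 with 1 array left out). Not all of these could move. Each member has 1 row, so averaging the rows of a gene leaves its fold changes and balances as they were. The moderation and the low-level filter can change the adjusted p but not the fold change. Over 90 alternative counts, called members numbered 8 for drug-treated HepG2S1 against HepG2, 4 to 5 on withdrawal, 4 to 7 for 2% O2 against 20% O2, 6 to 8 for withdrawn HepG2S1 against HepG2, 7 to 9 for 2% O2 against HepG2 and 4 to 6 for 2% O2 against withdrawn. The calls lost under 75th percentile scaling, beside those named above, were ALDOA (adjusted p = 0.0635) and ENO1 (0.121) for withdrawn HepG2S1 against HepG2, ENO1 (0.0765) for 2% O2 against HepG2, ENO1 (0.131) for withdrawal, ENO1 (0.0803) for 2% O2 against 20% O2 and ALDOA (0.136) for 2% O2 against withdrawn. That scaling moved the median of all genes by -0.105 for 2% O2 against HepG2 and by less for the other comparisons. In the 2 compared groups alone, ENO1 on withdrawal (0.0554) and ALDOA at 2% O2 against withdrawn (0.0614) were lost, and array weights called HK1 at 2% O2 against 20% O2 (0.0319) and against withdrawn (0.0399). Low signal may limit the folds of HK1 and PKLR, and the causes were not tested.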

Other observations

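Of 7 genes of gluconeogenesis, which runs the pathway in reverse in liver, 4 were lower and 1 was higher in HepG2S1 with sorafenib at 20% O2 than in HepG2. Among all genes tested 27.2% were lower and 30.1% higher. G6PC1, which releases free glucose, was at 4.87 in HepG2S1 and 8.16 in HepG2 (log2 fold change -3.29 ± 0.11, limma adjusted p = 3.25e-13). PCK2, the mitochondrial PEP carboxykinase, changed by -2.02 ± 0.07, its cytosolic form PCK1 by -0.98 ± 0.05 and pyruvate carboxylase (PC) by -0.65 ± 0.07. G6PC1 and PCK1 lay below the lower quartile of all genes in HepG2S1, so that the size of their folds may be limited by low signal. FBP2, which passed as higher with 0.21 ± 0.09 (adjusted p = 0.0499), lay below the lower quartile in both groups. On withdrawal PCK2 fell further by 0.86 ± 0.07 on the log2 scale (adjusted p = 2.26e-06) and PC by 0.22 ± 0.07 (adjusted p = 0.0323). At 2% O2 against 20% O2, 0 of the 7 passed in limma, where 8.99% of all genes were higher and 6.17% lower. Of the 7, 1, G6PC3 with 0.15 ± 0.06, had an unadjusted p below the threshold of 0.05.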
